A study of Mus musculus with 16 samples.

Results

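Enzymes that make serine, asparagine, proline, cysteine and mitochondrial one-carbon units were followed in a mouse hepatoma line that lacks an alternative exon of a translation elongation factor subunit. The 10 genes, Asns, Phgdh, Psat1, Psph, Shmt2, Mthfd2, Pycr1, Aldh18a1, Aldh1l2 and Cth, were taken by symbol from the 22392 gene symbols of the count table, and all 10 were found. Each gene stands with the transcript that had the largest sum over the 16 libraries, and reads on exons shared with its other transcripts are included in that count. For Asns, 2 transcripts had the same counts, and ENSMUST00000031766.11 was used. On GRCm38 all 10 lie on the minus strand. Phgdh (98313170 to 98339990) and Cth (157894248 to 157925077) are on chromosome 3, Psph (129765558 to 129787449) on chromosome 5, and Asns (7675169 to 7693254) and Mthfd2 (83305691 to 83325908) on chromosome 6. Aldh1l2 (83487450 to 83534140) and Shmt2 (127517123 to 127522444) are on chromosome 10, Pycr1 (120635712 to 120643769) on chromosome 11, and Psat1 (15904678 to 15947337) and Aldh18a1 (40550257 to 40588463) on chromosome 19. The values below come from their coding exons.

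Hepa1-6 is a mouse hepatoma cell line. Ribo-seq, which counts the mRNA fragments covered by ribosomes (footprints), and RNA-seq of the same lysate were available for WT cells and for 3 lines in which CRISPR/Cas9 removed Eef1d exon 5 (KO1, KO2 and KO3). Each line had 2 replicates per assay. KO1 and KO2 were made with the same pair of guide RNAs, and KO3 with another guide in the intron before the exon and the same guide in the intron after it. Each exon 5 KO line is 1 clone, so the effect of the deletion and that of the clone cannot be told apart within a line. All lines were grown alike, in medium with glutamine, pyruvate and nonessential amino acids, and the lysis buffer held cycloheximide and chloramphenicol. The count of the Eef1d transcript with exon 5 was 116% and 116.2% of that of the transcript without it in the WT RNA-seq libraries and from 89.8% to 92.6% in the 6 exon 5 KO libraries. These transcripts have 272 and 248 counted codons, and reads on their shared exons are counted on both. The percentages therefore do not give the amount of the transcript with exon 5 in the exon 5 KO lines. Counts of 1 transcript per gene summed to between 10493029 and 12946815 in RNA-seq. In Ribo-seq they summed to between 1138944 (KO1 replicate 2) and 4886757 (KO1 replicate 1), so the footprint values of KO1 rest mainly on 1 library.

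PHGDH, PSAT1 and PSPH form the pathway from a glycolytic intermediate to serine. In mitochondria, SHMT2 splits serine into glycine and a one-carbon unit, which MTHFD2 oxidizes and ALDH1L2 can release as carbon dioxide. ASNS makes asparagine from aspartate and glutamine, ALDH18A1 and PYCR1 carry the first and last steps from glutamate to proline, and CTH (cystathionine gamma-lyase) forms cysteine in transsulfuration. These genes are known as targets of ATF4, the transcription factor that is translated more when the kinases of the integrated stress response phosphorylate eIF2α. ATF4 binds, together with C/EBP proteins, to a composite element in the promoters of amino acid genes.

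The composite element was searched as the letters TGATGNAA, on both strands, in the RefSeq promoter windows of GRCm38.p6, which run from 250 bases before to 50 bases after a start site. Windows were given for 8 of the 10 genes, all but Aldh1l2 and Cth. The letters were found in 2 of these 8 genes, Asns and Pycr1, and in 4.51% of all 27025 genes with a window. Both matches read on the strand of the gene and are shown 5′ to 3′ with the matched letters in capitals, since they are the matches found among the windows searched.
Asns: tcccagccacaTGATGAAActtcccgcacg
Pycr1: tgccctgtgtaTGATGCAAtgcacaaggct
The Asns stretch lies at chr6:7693214-7693243 on the minus strand, and its match begins 23 bases before the RefSeq start site. In GENCODE the Asns gene reaches farther upstream, to 7693254 over all its transcripts, so the stretch lies within the gene bounds. Where the counted transcript starts within them was not determined. The Pycr1 stretch lies at chr11:120643833-120643862 on the minus strand, with the match 103 bases before the start site, outside the transcript. The windows of Psat1 and Mthfd2 lie inside the GENCODE gene bounds, with their upstream ends at 15925309 and 83317854. Over all their transcripts these genes reach farther upstream, to 15947337 and 83325908. The sequence next to any start site beyond the windows was not searched. A match is a description of these letters and not evidence of binding.

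In WT cells the 10 genes covered a wide range of levels. Per kilobase of counted coding sequence, WT RNA levels (CPM, counts scaled to library size with TMM factors, per kilobase, mean ± SD, n = 2) ran from 1137 ± 17.9 for Phgdh to 3.48 ± 0.617 for Aldh1l2. The order between them was Psat1 (246.9), Shmt2 (220.9), Mthfd2 (158), Asns (127), Psph (40.6), Aldh18a1 (35.5), Cth (11.4) and Pycr1 (7.74), and no neighbors in this order had overlapping replicates. Phgdh stood at the 98.5th percentile of 11215 genes expressed in WT cells and Aldh1l2 at the 11.5th.

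The footprint order in WT cells was the same apart from Asns (183 CPM per kilobase), which stood above Mthfd2 (109). TE in WT cells, the ratio of footprint to RNA CPM, was highest for Psph (2.02 and 2.15 in the 2 replicates) and Cth (1.84 and 2.22), whose replicates overlapped. It was lowest for Mthfd2 (0.72 and 0.651). The median TE over the 11215 genes was 0.86 on the same scale, and 8 of the 10 genes stood above it, Aldh1l2 (0.851) and Mthfd2 (0.686) being the exceptions. Psat1 (1.53 in both replicates) stood above Asns (1.48 and 1.41). Pycr1 could not be placed, since its replicates (1.87 and 1.05) rest on 51 and 16 footprint counts and span the values of Shmt2, Psat1, Asns, Aldh18a1 and Phgdh and the lower replicate of Cth.

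**Figure D1:**
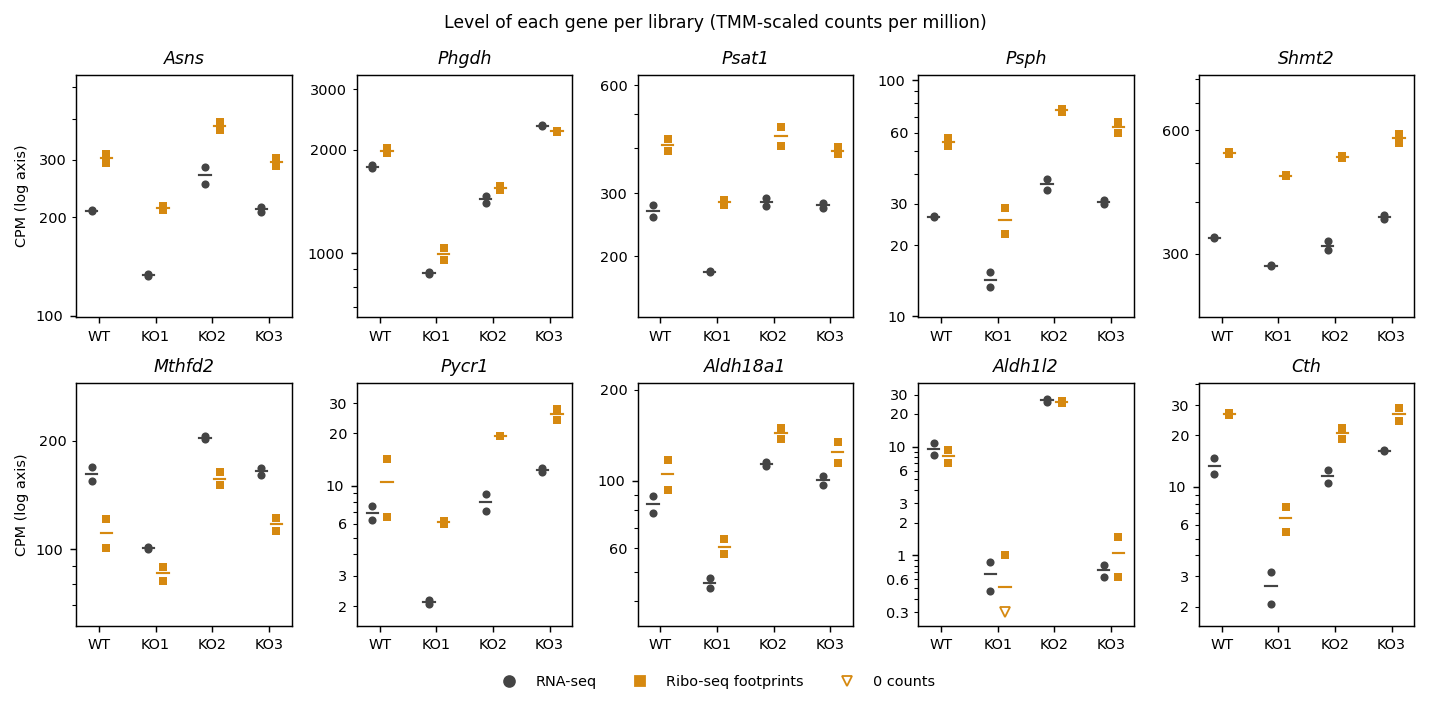
TMM-scaled CPM (log axis, a different range in each panel) of the 10 genes in RNA-seq (gray circles) and Ribo-seq (orange squares) for WT cells and the 3 exon 5 KO clones, with 1 point per replicate and a bar at the mean; an open triangle marks a library with 0 counts. KO1 points lie below both WT points of the same assay in every panel, while Aldh1l2 is high in KO2 and low in KO1 and KO3.

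The clones moved apart. In KO1, all 10 genes had less RNA and fewer footprints than WT cells. In KO2, 5 genes had more RNA and 1, Phgdh, had less, and in KO3, 4 genes had more and 1, Aldh1l2, had less. Called means a Benjamini-Hochberg adjusted p under 0.05 from edgeR's quasi-likelihood test of 1 clone against WT cells, adjusted over all genes tested. The 3 comparisons share the WT libraries and are therefore not independent of each other.

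For RNA in KO1, 0 of 10 genes rose and 10 fell, where 22.1% of all 11515 genes tested were called higher and 24.6% lower. In KO2, 5 rose and 1 fell, against 11.6% and 8.84% of all genes. In KO3, 4 rose and 1 fell, against 23.1% and 22.3% of all genes. The median log2 fold change of the 10 genes was -0.87, 0.28 and 0.19 in the order KO1, KO2, KO3, beside medians over all genes of 0.0025, 0.00017 and 0.0014. Without WT replicate 2 the KO2 median was 0.18, and in KO3 Aldh18a1 (0.17, edgeR adjusted p = 0.193) and Shmt2 (0.16, edgeR adjusted p = 0.0687) were no longer called, which left 2 genes higher and 1 lower.

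For footprints in KO1, 0 of 10 genes rose and 10 fell, where 11.7% of 10335 genes were called higher and 15.2% lower. In KO2, 6 rose and 1 fell, against 6.74% and 4.99%. In KO3, 2 rose and 1 fell, against 14.9% and 15.7%. The median log2 change in footprints was -0.86, 0.38 and 0.08, where the medians of all genes were 0.0019, 0.0013 and 0.004. The KO3 median was 0.019 without WT replicate 2 and 0.13 without WT replicate 1. In KO1, 7 of the 10 footprint calls held in every alternative that gave a value (10, and 9 for Aldh1l2), and the falls of Mthfd2, Pycr1 and Shmt2 did not, while 4 of 7 held in KO2 and 2 of 3 in KO3.

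**Figure D2:**
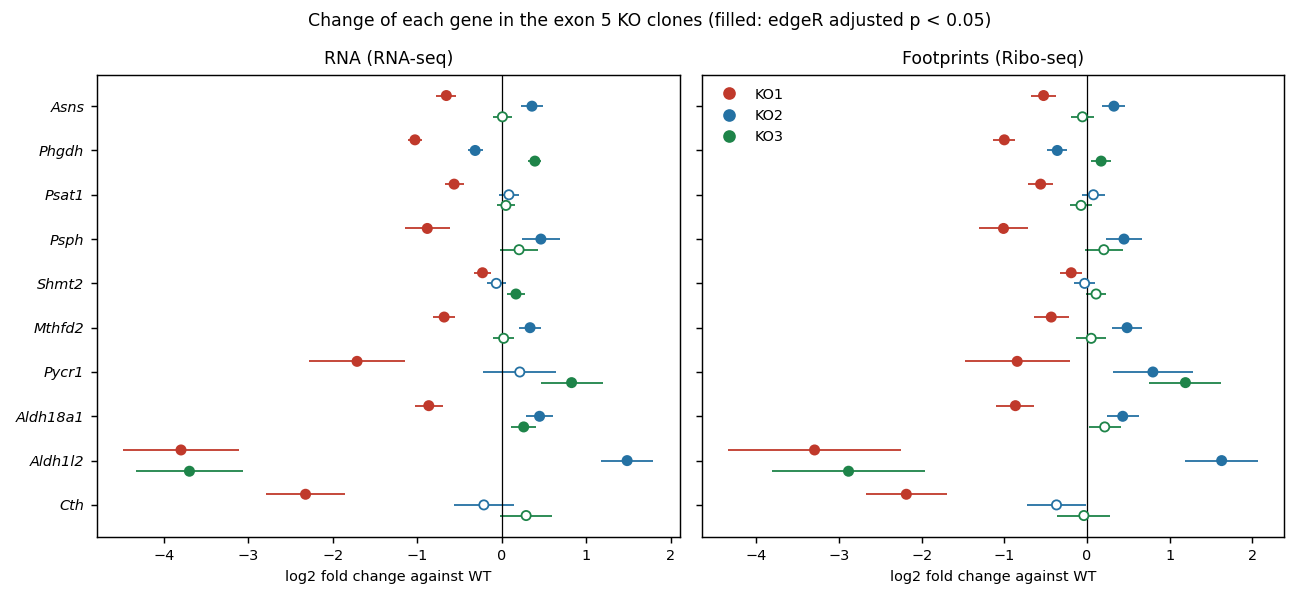
Log2 fold change against WT (x axis) with its 95% interval (bar) for each of the 10 genes (rows) in RNA (left) and footprints (right); red is KO1, blue is KO2, green is KO3, and filled points have an edgeR adjusted p under 0.05. All red points are filled and lie left of 0, and Aldh1l2 and Cth lie farthest from it in KO1.

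Among the serine pathway genes, Phgdh was called in all 3 clones in both assays. Its RNA was at 1807 and 1767 CPM in WT cells, 884 and 871 in KO1, 1403 and 1468 in KO2, with 2340 and 2361 in KO3. The 4 lines did not overlap, with KO3 highest and KO1 lowest. The log2 fold change was -1.03 ± 0.0391 (SE) in KO1 (edgeR adjusted p = 4.68e-29), -0.31 ± 0.043 in KO2 (edgeR adjusted p = 1.05e-05) and 0.39 ± 0.039 in KO3 (edgeR adjusted p = 1.01e-14). Footprints of Phgdh kept the same order, with 2023 and 1953 CPM in WT cells, 1035 and 959 in KO1, 1568 and 1532 in KO2, with 2265 and 2252 in KO3. The 95% interval of the footprint change ran from -1.13 to -0.87 in KO1 on the log2 scale, and the change was -0.36 for KO2 and 0.17 for KO3. The KO3 call (edgeR adjusted p = 0.0248) was lost without any 1 of WT replicate 1, WT replicate 2, KO3 replicate 1 or KO3 replicate 2, with values from 0.15 to 0.20 and edgeR adjusted p from 0.0505 to 0.153.

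Psat1, the aminotransferase that follows PHGDH, was called in KO1 in both assays and in neither of the other clones. Its RNA was at 278 and 257 CPM in WT cells, 182 and 180.3 in KO1, 290.2 and 276 in KO2, with 282 and 273 in KO3. KO2 and KO3 overlapped with WT cells, and KO1 did not. The log2 fold change in KO1 was -0.56 ± 0.0558 for RNA (edgeR adjusted p = 2.09e-12) and -0.56 ± 0.0732 for footprints (edgeR adjusted p = 2.49e-08). In KO2 and KO3 the 95% intervals of the RNA change ran from -0.04 to 0.21 and from -0.06 to 0.16.

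Psph, the phosphatase of the last step to serine, was at 26.2 and 26.5 RNA CPM in WT cells, 15.3 and 13.2 in KO1, 34.2 and 38.2 in KO2, with 30.9 and 29.9 in KO3. The fall in KO1 was -0.88 ± 0.134 on the log2 scale (edgeR adjusted p = 2.06e-07) and the rise in KO2 was 0.46 ± 0.11 (edgeR adjusted p = 0.00341). In KO3 both replicates were above both WT replicates, but the change of 0.21 was not called (edgeR adjusted p = 0.125). Footprints changed by -1.01 in KO1 and 0.45 in KO2. The KO2 footprint call was lost without WT replicate 1, where the value was 0.38 (edgeR adjusted p = 0.119), and with DESeq2 (0.44, adjusted p = 0.228).

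Of the mitochondrial one-carbon enzymes, Shmt2 spanned the narrowest range over the clones. Its RNA was at 329 and 327 CPM in WT cells, 280.3 and 280.8 in KO1, 306 and 321 in KO2, with 374 and 365 in KO3. RNA changed by -0.23 ± 0.0505 in KO1 (edgeR adjusted p = 0.000188) and by 0.17 ± 0.0516 in KO3 (edgeR adjusted p = 0.00465) on the log2 scale, and the KO3 call was lost without WT replicate 2. Footprints of Shmt2 were at 524 and 529.9 CPM in WT cells and 465 and 464 in KO1, a change of -0.19 ± 0.0673 (edgeR adjusted p = 0.0284). This call was lost without WT replicate 1, WT replicate 2 or KO1 replicate 1, where the value stayed between -0.19 and -0.18 and edgeR adjusted p ran from 0.164 to 0.193. It also missed the threshold without a filter on low counts, over all transcripts and with DESeq2.

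Mthfd2, the mitochondrial dehydrogenase and cyclohydrolase, was at 169 and 155 RNA CPM in WT cells, 100.4 and 102 in KO1, 206 and 202 in KO2, with 168 and 161 in KO3. RNA fell by 0.68 on the log2 scale in KO1 (edgeR adjusted p = 6.86e-13) and rose by 0.34 in KO2 (edgeR adjusted p = 0.000405), while KO3 lay within the WT range. In footprints the values were 122 and 101 in WT cells, 82 and 89.6 in KO1, 164 and 150.3 in KO2, with 122 and 112 in KO3. The footprint change was -0.43 ± 0.105 in KO1 (edgeR adjusted p = 0.00127) and 0.48 ± 0.0905 in KO2 (edgeR adjusted p = 0.000371). Without WT replicate 1 the KO1 value was -0.27 (edgeR adjusted p = 0.225), and without KO1 replicate 1 it was -0.33 (edgeR adjusted p = 0.172). The KO1 footprint call was also lost with DESeq2 (-0.40, adjusted p = 0.189).

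Aldh1l2 had the largest changes of the set and was the 1 gene with called falls in both KO1 and KO3 and a called rise in KO2. Before scaling, its RNA counts were 118 and 98 in WT cells, 10 and 5 in KO1, 292 and 319 in KO2, with 8 and 10 in KO3. The footprint counts were 33 and 17 in WT cells, 5 and 0 in KO1, 101 and 79 in KO2, with 6 and 2 in KO3. The groups did not overlap with WT cells in either assay. For RNA the log2 fold change was -3.80 ± 0.34 in KO1 (edgeR adjusted p = 6.63e-14), 1.49 ± 0.15 in KO2 (edgeR adjusted p = 1.21e-07) and -3.70 ± 0.321 in KO3 (edgeR adjusted p = 2.33e-17). For footprints it was -3.30 ± 0.52, 1.63 ± 0.215 and -2.89 ± 0.457, all called. With 1 footprint library of KO1 at 0 counts and few counts in the others, the low values of KO1 and KO3 are imprecise, and KO1 replicate 1 carries the whole KO1 footprint value.

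Asns RNA was at 210.2 and 209 CPM in WT cells, 134 and 132 in KO1, 284 and 253 in KO2, with 215 and 207 in KO3. KO1 lay below WT cells and KO2 above, and KO3 overlapped with WT cells. The log2 fold change was -0.65 ± 0.0591 in KO1 (edgeR adjusted p = 8.97e-14), 0.36 ± 0.0622 in KO2 (edgeR adjusted p = 0.000175) and 0.01 ± 0.0579 in KO3 (edgeR adjusted p = 0.908). Footprints were at 312 and 294 in WT cells, 211 and 216 in KO1, 389.6 and 370.4 in KO2, with 288 and 303 in KO3. They changed by -0.53 in KO1 and 0.33 in KO2, both called, and by -0.06 in KO3 with an interval from -0.19 to 0.08.

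For proline synthesis, Aldh18a1 was at 89.2 and 78 RNA CPM in WT cells, 44.3 and 47.7 in KO1, 116 and 112 in KO2, with 104 and 96.9 in KO3. It was the 1 gene of the set besides Phgdh and Aldh1l2 with an RNA call in every clone, at -0.86 ± 0.0836 in KO1 (edgeR adjusted p = 9.6e-13), 0.45 ± 0.0774 in KO2 (edgeR adjusted p = 0.000167) and 0.26 ± 0.0745 in KO3 (edgeR adjusted p = 0.00253). The KO3 call was lost without WT replicate 2, as given above. Footprints changed by -0.87 in KO1 and 0.43 in KO2, both called. The KO2 call was lost without WT replicate 2 (0.30, edgeR adjusted p = 0.0664) and with DESeq2 (0.44, adjusted p = 0.0798). The KO3 footprint value of 0.21 was not called (edgeR adjusted p = 0.0848), although it was called with a block for the replicate number. It was 0.41 without WT replicate 1 and 0.32 without KO3 replicate 2.

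Pycr1 was at 7.64 and 6.3 RNA CPM in WT cells, 2.17 and 2.06 in KO1, 7.11 and 8.94 in KO2, with 12.7 and 12 in KO3. Its RNA fell in KO1 by 1.71 on the log2 scale (SE 0.284, edgeR adjusted p = 1.33e-06) and rose in KO3 by 0.83 ± 0.185 (edgeR adjusted p = 0.000118), and KO2 overlapped with WT cells. Footprint counts before scaling were 51 and 16 in WT cells, 31 and 7 in KO1, 77 and 58 in KO2, with 97 and 89 in KO3. The footprint change was -0.84 ± 0.315 in KO1 (edgeR adjusted p = 0.0396), 0.80 ± 0.237 in KO2 (edgeR adjusted p = 0.0245) and 1.19 ± 0.216 in KO3 (edgeR adjusted p = 2.45e-05). These values depend on the WT replicates, which were at 14.3 and 6.61 CPM. Without WT replicate 1 they were -0.09 (edgeR adjusted p = 0.938), 1.54 and 1.94, and without WT replicate 2 the KO2 value was 0.44 (edgeR adjusted p = 0.334). Without KO1 replicate 1 the KO1 value was -0.90 (edgeR adjusted p = 0.291). With DESeq2 the footprint calls in KO1 (-0.78, adjusted p = 0.603) and KO2 (0.85, adjusted p = 0.354) were lost.

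Cth was at 14.7 and 11.9 RNA CPM in WT cells, 3.2 and 2.06 in KO1, 12.5 and 10.5 in KO2, with 16.3 and 16.2 in KO3. Only KO1 was called, with a log2 fold change of -2.32 ± 0.235 (edgeR adjusted p = 3.64e-12) for RNA and -2.19 ± 0.244 (edgeR adjusted p = 4.71e-10) for footprints. In footprints the CPM were 27.1 and 26.4 in WT cells and 5.47 and 7.68 in KO1. In KO3 both RNA replicates were above WT cells while the change of 0.29 was not called (edgeR adjusted p = 0.117).

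Footprint changes mostly had the sign of the RNA changes. Across the 10 genes, Pearson's r between RNA and footprint log2 changes was 0.965 for KO1, 0.942 for KO2 and 0.979 for KO3, over n = 10 genes that share libraries, with Aldh1l2 farthest from the other genes in each clone. Without Aldh1l2, a choice made after seeing the data, r was 0.891, 0.855 and 0.908 over 9 genes. The footprint change minus the RNA change ran from -0.13 to 0.87 in KO1, from -0.16 to 0.58 in KO2 and from -0.33 to 0.81 in KO3 on the log2 scale, with Pycr1 at the upper end in KO1 and KO2 and Aldh1l2 in KO3. None of these differences was called in the TE test given below. The signs of both changes were the same for 10, 10 and 7 genes. In KO3 the 3 genes that differed in sign were Asns, Psat1 and Cth, none of which was called in either assay there.

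**Figure D3:**
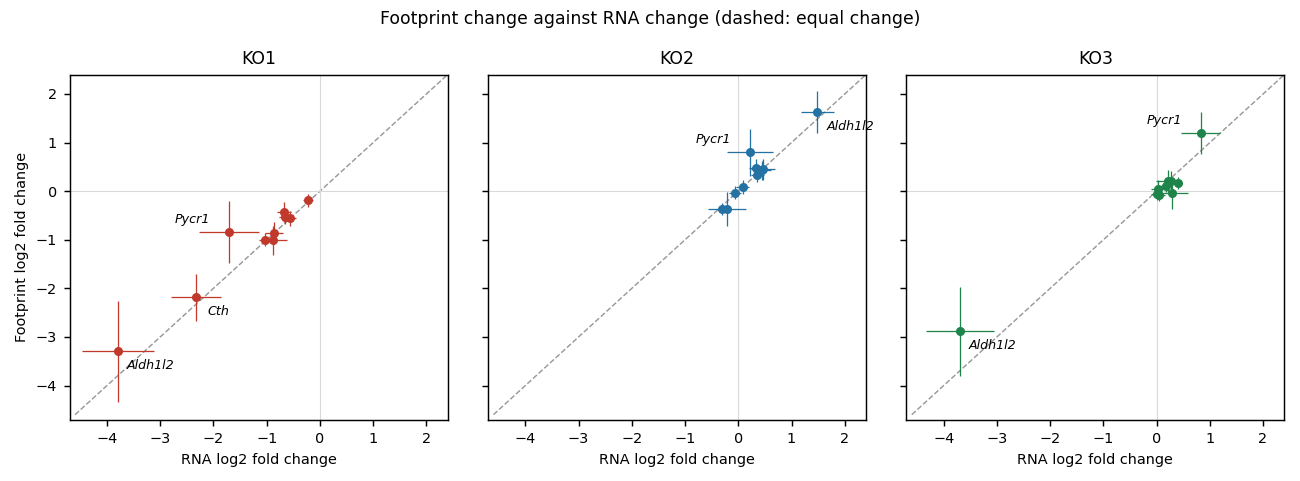
Footprint log2 fold change (y axis) against RNA log2 fold change (x axis) of the 10 genes in each clone, with 95% intervals as bars and the line of equal change dashed. Pycr1 lies above the dashed line in all 3 clones, and Aldh1l2 lies farthest above it in KO3, both with wide bars.

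No TE change was called for any of the 10 genes. The TE change is what the footprints change by beyond the RNA, tested as an interaction over the 8 libraries of a clone and WT cells. In this test edgeR called 0 of 10 genes in each clone, where the calls made up 0.0942% of all genes for KO1, 0.0173% for KO2 and 0.104% for KO3. With a block for the shared lysate of a replicate, 83 genes rather than 11 were called in KO1 and 4 rather than 2 in KO2, with 0 of the 10 genes among them. DESeq2 called 0 of 10 in KO2 and KO3, and in KO1 it gave an adjusted p to 584 of 11680 genes, 2 of the 10 among them (Phgdh and Shmt2), neither called. At an unadjusted p under 0.05, edgeR gave 1 gene in KO1 (Mthfd2), 0 in KO2 and 1 in KO3 (Phgdh), and DESeq2 gave 0, 0 and 1 (Phgdh).

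The 95% intervals of the TE changes are not adjusted for the number of genes, so a change whose interval leaves out 0 could still miss the call. They were narrowest for Phgdh, with half-widths of 0.145 for KO1, 0.155 for KO2 and 0.134 for KO3 on the log2 scale, and widest for Aldh1l2, with 1.75 and 1.43 in KO1 and KO3. For Phgdh, TE was 1.12 and 1.11 in the WT replicates, 1.17 and 1.10 in KO1, 1.12 and 1.04 in KO2, with 0.968 and 0.954 in KO3. Its KO3 replicates lay below both WT replicates, and the change was -0.22 (95% interval -0.35 to -0.085, edgeR adjusted p = 0.331). Asns TE changed by 0.14 in KO1 (-0.05 to 0.32), -0.03 in KO2 (-0.22 to 0.16) and -0.06 in KO3 (-0.23 to 0.11). Mthfd2 TE, the lowest in WT cells, was at 0.817 and 0.883 in KO1, above both WT replicates, with a change of 0.26 (0.0013 to 0.51, edgeR adjusted p = 0.702).

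Pycr1 TE was positive in all 3 comparisons, at 0.88 (-0.06 to 1.82), 0.59 (-0.09 to 1.28) and 0.38 (-0.23 to 0.99), each against the same pair of WT replicates. The values were 1.47, 1.19 and 0.98 without WT replicate 1 and 0.64, 0.36 and 0.15 without WT replicate 2, none of them called. The median absolute TE change of the 10 genes was 0.133, 0.0403 and 0.0896, and over all genes it was 0.167, 0.141 and 0.151. The signed medians were 0.091, -0.012 and -0.05 for the 10 genes and 0.019, 0.00085 and -0.013 over all genes. When 1 replicate was left out, the signed median of the 10 genes ran from 0.051 to 0.076 in KO1, from -0.039 to 0.040 in KO2 and from -0.094 to -0.014 in KO3.

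**Figure D4:**
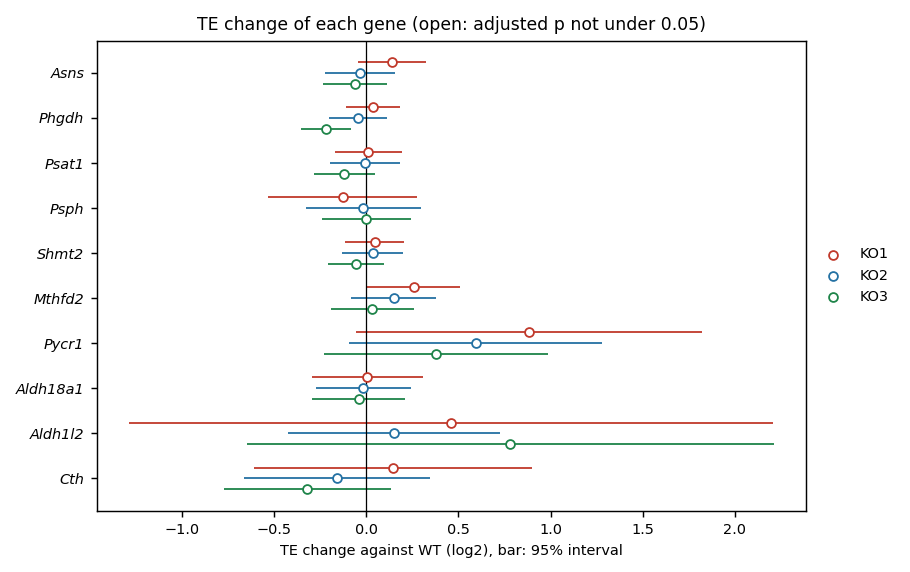
TE change against WT (x axis, log2) of each of the 10 genes (rows) in KO1 (red), KO2 (blue) and KO3 (green), with 95% intervals as bars; every point is open because none had an adjusted p under 0.05. Bars are short for Phgdh, Shmt2, Psat1 and Asns and long for Aldh1l2, Pycr1 and Cth.

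Whether the clones differ from each other was tested over all lines of an assay. RNA of 10 of the 10 genes differed between KO1, KO2 and KO3, where 74.0% of all genes did, and footprints of 10 of 10 differed, where 59.5% of all genes did. TE differed for 0 of 10 in edgeR, against 1.03% of all genes, with Phgdh alone under an unadjusted p of 0.05 (edgeR adjusted p = 0.186). Summed over the 10 genes, RNA was at 2941 and 2846 CPM in WT cells, 1646 and 1632 in KO1, 2685 and 2716 in KO2, with 3542 and 3524 in KO3. Without Phgdh the sums were 1134 and 1079 in WT cells, 762 and 760.5 in KO1, 1282 and 1248 in KO2, with 1203 and 1162 in KO3. KO2 thus stood below WT cells with Phgdh and above without it.

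Other genes of the same pathways were taken as lists, and their counts are read beside the percentages given above for all genes. Of 8 paralogs and partner enzymes, mostly cytosolic counterparts, RNA of 1 rose and 2 fell in KO1, 1 rose and 1 fell in KO2, and 2 rose and 2 fell in KO3, with medians of 0.03, -0.22 and -0.0027. Pycr3, listed as Pycrl, fell in KO1 in RNA (-0.55) and footprints (-0.47) and was not called elsewhere.

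Shmt1, the cytosolic counterpart of Shmt2, rose in RNA in KO1 (0.26) and was not called in footprints there (0.12). Mthfd1, the cytosolic trifunctional enzyme, had RNA changes of -0.11 (not called), -0.29 and 0.17. Mthfd1l, which makes formate in mitochondria, fell in KO1 in RNA (-0.47) and footprints (-0.49), and its RNA rose in KO3 (0.30). Aldh1l1, the cytosolic counterpart of Aldh1l2, had 48 RNA counts over both WT libraries and fell in RNA in KO3 (-1.99). Mthfd2l and Cbs, the latter acting before CTH in transsulfuration, had no called change in the comparisons where they were tested.

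Of 14 genes of ATF4 and its regulators, RNA of 2 rose and 9 fell in KO1, 4 rose and 0 fell in KO2, and 4 rose and 3 fell in KO3, with medians of -0.41, 0.01 and 0.03. In footprints, 2 of 13 rose and 6 fell in KO1, 3 of 14 rose and 0 fell in KO2, and 5 rose and 1 fell in KO3, with medians of -0.48, 0.10 and -0.019. Atf4 RNA changed by -0.95 in KO1 (edgeR adjusted p = 4.66e-22), 0.28 in KO2 (edgeR adjusted p = 0.00298) and 0.22 in KO3 (edgeR adjusted p = 0.00015). Atf4 footprints changed by -1.25 and 0.55 in KO1 and KO3, both called, and by 0.24 in KO2 (edgeR adjusted p = 0.0781). The signs of the Atf4 RNA changes were those of the median of the 10 genes in each clone. The called RNA falls of Phgdh in KO2 and of Aldh1l2 in KO3 had the other sign. A link between Atf4 and the 10 genes was not tested.

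Trib3, a pseudokinase that restrains ATF4, had RNA changes of -2.83, 0.03 (not called) and 1.33. The transcription factors Atf5 (-1.63, 0.12 and 0.96) and Ddit3 (-0.53, -0.05 and 0.58) had called RNA changes in KO1 and KO3 and none in KO2. In KO1, RNA also fell for Atf3 (-0.91), Cebpb (-0.35), Cebpg (-0.48) and Ppp1r15a (-0.26), and RNA of these 4 was not called in KO2 or KO3. Cebpg footprints were called higher in KO3 (0.47). Nupr1, a stress-induced transcription cofactor, had RNA changes of -1.33, 1.43 and -2.01, which are the signs seen for Aldh1l2.

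Of the 4 kinases that phosphorylate eIF2α, RNA of Eif2ak1 rose in KO1 (0.77) and was not called in KO2 and KO3. Eif2ak3 (PERK) RNA rose in KO1 (0.38) and KO2 (0.36) and fell in KO3 (-0.38). Eif2ak2 RNA fell in KO3 (-0.46), and Eif2ak4 (GCN2) was not called in any clone. Ppp1r15b, a subunit of an eIF2α phosphatase, rose in RNA in KO2 (0.28).

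Among 17 tested of 20 other genes known as ATF4 targets, RNA of 0 rose and 12 fell in KO1, 3 rose and 3 fell in KO2, and 10 rose and 3 fell in KO3, with medians of -0.42, -0.06 and 0.22. The 3 with the most RNA were Slc38a2, a neutral amino acid transporter (-0.42, -0.01 not called, -0.40), Slc3a2, the heavy chain of amino acid exchangers (-0.26, 0.07 not called, 0.20), and Eif4ebp1, a repressor of cap-dependent translation (-0.47, 0.56, 0.20). Of the 5 tRNA synthetases for the products, RNA of 1 rose and 4 fell in KO1, 3 rose and 0 fell in KO2, and 2 rose and 0 fell in KO3, with medians of -0.26, 0.16 and 0.09. Nars, which charges the asparagine tRNA, had RNA changes of -0.43, 0.09 (not called) and 0.51, while Gars, for glycine, had -0.23, 0.16 and 0.09 (not called). Eprs, for glutamate and proline, rose in RNA in all 3 clones (0.12, 0.34 and 0.17).

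In the neighboring metabolic lists, RNA of at least 1 gene rose in each clone. In one-carbon and glycine metabolism, RNA of 1 of 15 rose and 2 fell in KO1, 2 of 15 rose and 0 fell in KO2, and 2 of 14 rose and 4 fell in KO3, with medians of 0.0095, 0.10 and 0.013. The 3 with the most RNA were Dld, a subunit of the glycine cleavage system (RNA not called in any clone), Gcsh of the same system (RNA change 0.38 in KO2, RNA not called in the other clones) and the mitochondrial folate carrier Slc25a32 (RNA change -0.45 in KO3, RNA not called in the other clones). In proline and glutamate metabolism, RNA of 2 of 15 rose and 7 fell in KO1, 5 rose and 2 fell in KO2, and 5 rose and 5 fell in KO3, with medians of -0.16, 0.10 and -0.019. In RNA, Got2, the mitochondrial aspartate aminotransferase, rose in KO2 (0.34) and KO3 (0.43), Glud1, glutamate dehydrogenase, fell in KO2 (-0.27) and rose in KO3 (0.48), and Glul, glutamine synthetase, rose in KO2 (0.66) and fell in KO3 (-0.31). None of these 3 was called in KO1.

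In methionine and cysteine metabolism, RNA of 1 of 10 rose and 3 fell in KO1, 1 rose and 1 fell in KO2, and 1 rose and 4 fell in KO3, with medians of -0.11, -0.05 and -0.11. In RNA, Ahcy, which hydrolyzes S-adenosylhomocysteine, was not called in any clone, Mat2a, which makes S-adenosylmethionine, rose in KO1 (0.22) and fell in KO3 (-0.40), and Mtap rose in KO2 (0.23). In TE against WT cells, 0 genes of these lists were called in edgeR in any clone. In the test between clones, 1 gene of the lists was called for TE, where 1.03% of all genes were called. It was Atf4 (edgeR adjusted p = 0.0162), whose log2 TE differences from WT cells were -0.29, -0.04 and 0.33 (KO1, KO2, KO3), none of these called.

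**Figure D5:**
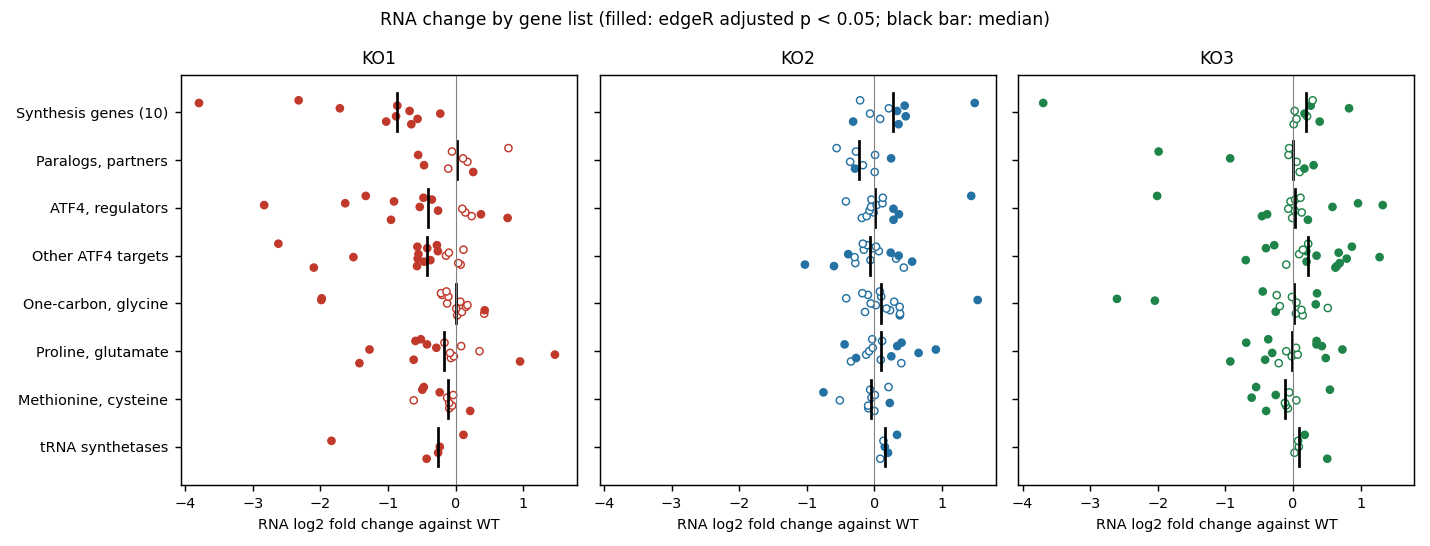
RNA log2 fold change against WT (x axis) of every tested gene (points) of each list (rows) in KO1, KO2 and KO3; filled points have an edgeR adjusted p under 0.05 and black bars mark the median of the list. In KO1 the bars of the synthesis genes, the ATF4 list and the other ATF4 targets lie at -0.87, -0.41 and -0.42, and in KO2 and KO3 the bars lie nearer 0.

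Over the 16 libraries, the profile of a gene was compared with the mean profile of the 10 genes in log2 CPM, centered within each assay. For the 10 genes alone a small constant was added to the CPM before the log2, which matters most at low CPM, as for Aldh1l2 in KO1 and KO3. Within the set, Pearson's r with the mean of the other 9 was 0.972 for Psat1, 0.967 for Asns, 0.956 for Psph, 0.955 for Aldh18a1 and 0.945 for Mthfd2, and 0.836 for Cth. It was lower for Pycr1 (0.743), Phgdh (0.688), Shmt2 (0.640) and Aldh1l2 (0.531). Of 4008 genes outside the set with at least 50 counts in every library, the most alike were Clu (r = 0.981), Vil1 (r = 0.979), Srebf2 (r = 0.975), Atp10a (r = 0.975) and Ilk (r = 0.974). Their RNA changes in KO1 were -1.30, -0.94, -0.75, -1.19 and -0.66. The points are libraries that share lines and lysates, so these coefficients describe 4 lines rather than 16 independent samples.

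Hepatocyte markers also moved with the clones. Summed over 8 markers, RNA was at 2486 and 2313 CPM in WT cells, 911 and 910.2 in KO1, 1956 and 1828 in KO2, with 3465 and 3636 in KO3. The order of the lines was that of the summed synthesis genes with Phgdh included, and not that of their sum without Phgdh, in which KO2 was highest. Alb was at 784 and 742 CPM in WT cells, 262 and 274 in KO1, 522 and 469 in KO2, with 1759 and 1882 in KO3. Afp, the fetal counterpart of albumin, was likewise highest in KO3 (1107 and 1160, against 747 and 693 in WT cells) and lowest in KO1 (349 in both). In KO2 Afp was at 598 and 548, and in KO1 and KO2 it was above Alb. The other expressed markers were below WT cells in KO3. Trf (transferrin) was at 753 and 681 in WT cells, 214 and 212 in KO1, 596 and 584 in KO2, with 470.3 and 463 in KO3. Apob was at 89.4 and 92.2 in WT cells, 54.4 and 50.2 in KO1, 147 and 129 in KO2, with 46.2 and 45.4 in KO3. Hnf4a, a hepatocyte transcription factor, was at 109 and 104 in WT cells, 30.9 and 23.5 in KO1, 92.8 and 98 in KO2, with 81.5 and 85 in KO3. KO1 was thus below WT cells for all 5 of these markers, while KO2 was above them for Apob and KO3 for Alb and Afp. Ttr, Apoa1 and Serpina1a were at or near 0 in every library, including WT cells. The part of these differences in the changes of the synthesis genes was not tested, and in bulk libraries fewer cells of a type and less RNA per cell cannot be told apart.

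Markers of other cell types were mostly near 0. Of 4 leukocyte markers, Adgre1 was at 0 in every library, Ptprc reached 0.468 CPM, Cd68 was at 6.37 and 5.36 in WT cells and 4.16 and 4.32 in KO1, and Csf1r was at 2.82 and 5.28 in WT cells and 17.2 and 16.8 in KO1. The sum of the 4 was 9.18 and 10.7 in WT cells, 21.7 and 21.5 in KO1, 8.98 and 9.19 in KO2, with 5.16 and 7.13 in KO3, and the higher sum in KO1 came almost wholly from Csf1r. The 3 endothelial markers summed to at most 2.27. The sum of 4 fibroblast markers was from 714 to 1102 and came almost wholly from Dcn (707 to 1100), with Col1a2 at or near 0. The 4 biliary markers summed to 155 and 137 in WT cells and 79.9 and 84.9 in KO1. In KO2 they summed to 236 and 240, and in KO3 to 455 and 478. Krt7 was at 57 and 51.7 in WT cells and 6.15 and 8.73 in KO1. Sox9 was higher there, at 93.2 and 81 in WT cells and 69.4 and 71.6 in KO1. In KO2 (150 and 141) and KO3 (334 and 344) Krt7 was above Sox9. Krt19 was near 0. The part of these markers in the results was not tested.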

How the data were processed

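The authors trimmed adapters with fastp 0.21.0, removed noncoding RNA reads, aligned to mm10 with STAR 2.7.0a and deposited raw counts of A-site positions per coding sequence (GENCODE vM23 per the paper), without 5 codons at each end. The labels call the RNA-seq molecule polyA RNA and their protocol describes rRNA depletion. Here 1 transcript per gene was tested (edgeR 4.0.16, R 4.3.3): filterByExpr, TMM within each assay, quasi-likelihood fits of 4 libraries (RNA, footprints) or 8 (TE), and of all lines for differences between clones, with adjusted p under 0.05. The fits were tested on simulated data, where the TE fit found fewer of the altered genes than the RNA fit at the same fold, so a TE change that was not called is not shown to be absent. CPM was scaled by TMM. Alternatives included DESeq2 1.42.0. The paper calls the replicates biological, and the labels do not say whether they were separate cultures, so p-values measure the spread between these samples. Both assays of a replicate share a lysate per the labels, and their deviations correlated (r from 0.113 to 0.284 across 4014 genes). Members, lists and tests were chosen with earlier results of these data known. Named genes were the members, all paralogs and ATF4 genes, the 3 genes of each other list with the most WT RNA, and the 5 genes most alike, except for a gene that is not reported here. Promoters are from RefSeq (GRCm38.p6) and gene coordinates from GENCODE on GRCm38. No comparison columns of the authors were used.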

Additional observations from a re-analysis of the deposited data

Results flagged for a closer look

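Each of the 10 genes was selected for a closer look because the 3 exon 5 KO clones differed from each other in the test of that difference (edgeR over all lines of an assay). The same test called 74.0% of all genes in RNA and 59.5% in footprints. The distance between the highest and the lowest RNA log2 fold change of the 3 clones was 5.28 for Aldh1l2, 2.61 for Cth, 2.54 for Pycr1, 1.42 for Phgdh, 1.35 for Psph, 1.31 for Aldh18a1, 1.02 for Mthfd2, 1.01 for Asns, 0.65 for Psat1 and 0.40 for Shmt2. In footprints the distance was 4.92 for Aldh1l2, 2.15 for Cth, 2.04 for Pycr1, 1.46 for Psph, 1.30 for Aldh18a1, 1.17 for Phgdh, 0.92 for Mthfd2, 0.85 for Asns, 0.64 for Psat1 and 0.30 for Shmt2. The largest edgeR adjusted p among them was 3.06e-07 for RNA and 0.000454 for footprints, both for Shmt2. KO1 had the lowest mean RNA of the 4 lines for each of the 10 genes, but for Aldh1l2 the replicates of KO1 (0.866 and 0.469 CPM) and KO3 (0.635 and 0.819 CPM) overlapped.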

How the results depend on the processing

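The calls of all 10 genes in KO1 RNA and of all 6 in KO2 RNA held in each of the 10 alternatives run, and no TE call of the 10 genes was gained in any of the 11 run for TE, where DESeq2 gave only 2 of the 10 an adjusted p in KO1. In KO3 RNA, 3 of 5 calls held throughout, and the count ran from 3 to 5 when 1 replicate was left out. With DESeq2, 7 of the 10 genes were called in KO1 footprints against 10 (Mthfd2, Pycr1 and Shmt2 were lost) and 4 in KO2 footprints against 7 (Aldh18a1, Psph and Pycr1 were lost), and over all genes it called 1404 against 2346 for KO2 RNA, 859 against 2777, 324 against 1216 and 1243 against 3179 for footprints in KO1, KO2 and KO3, and 19 against 11 and 7 against 12 for TE in KO1 and KO3. The KO1 TE count of DESeq2 is over the 584 genes of 11680 that got an adjusted p. TE calls over all genes were 21 in KO1 and 19 in KO3 without a filter on low counts, 17 in KO1 over all transcripts and 7 in KO3 with all lines in 1 fit. With a lysate block they were 83 in KO1 and 4 in KO2. The cause of these shifts was not tested.

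Replicate numbers are shared by the lines, but there are only 2 numbers and no source ties a number to a batch. The correlation of same-numbered deviations lay between -0.00425 and 0.375 for RNA and between 0.097 and 0.201 for footprints. A replicate block gave 56 TE calls in KO1 and 232 genes whose TE differed between clones against 123. Under it Aldh18a1 footprints in KO3 were called (0.22), and no other call of the 10 genes changed.

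Leaving out 1 replicate gave from 1390 to 2521 genes called for KO2 RNA, from 1381 to 2806 and from 710 to 1060 for footprints in KO1 and KO2, from 4 to 11, from 1 to 2 and from 2 to 6 for TE in KO1, KO2 and KO3, and from 60 to 128 for TE between clones. It turned the sign only of values that were not called. For RNA in KO3 these were Asns (-0.015 to 0.036), Mthfd2 (-0.039 to 0.089) and Psat1 (-0.0046 to 0.11). For footprints they were Psat1 in KO2 (-0.022 to 0.16), and Cth (-0.15 to 0.092) and Mthfd2 (-0.056 to 0.21) in KO3. For TE in KO1 they were Aldh18a1 (-0.035 to 0.097), Cth (-0.25 to 0.87), Phgdh (-0.024 to 0.063) and Psat1 (-0.022 to 0.046). In KO2 they were Aldh18a1 (-0.069 to 0.077), Asns (-0.086 to 0.011), Psat1 (-0.073 to 0.034), Psph (-0.074 to 0.045) and Shmt2 (-0.0077 to 0.071). In KO3 they were Aldh18a1 (-0.12 to 0.056), Aldh1l2 (-0.19 to 1.39), Asns (-0.12 to 0.0066), Mthfd2 (-0.016 to 0.13) and Psph (-0.064 to 0.0497). The TE value of Aldh18a1 in KO1 turned to -0.0022 with DESeq2's size factors and -0.0205 with the replicate block, and that of Psat1 to -0.0051 with the replicate block. For Psph in KO3 it turned to 0.0061 with DESeq2's size factors, 0.0021 without a filter, 0.0021 with the replicate block and 0.00034 with DESeq2. Aldh1l2 footprints and TE in KO1 without KO1 replicate 1 could not be given, because the remaining library held 0 counts.

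The smallest Ribo-seq library limits KO1 footprints: in it Pycr1 had 7 counts, Cth 9 and Aldh1l2 0, so TE changes of these genes were not detectable at this depth unless large.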
